A study of Mus musculus with 6 samples.

Results

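Id1, Id2, Id3 and Id4 are the 4 mouse genes of the Id family, taken as members by name. The data at these genes were the ChIP-seq peaks whose summit lay within 100 kb of a gene's interval on mm10, assigned gene by gene. This rule gave 7 of 3640 peaks in the list of doxycycline-treated cells and 3 of 4379 peaks in the list of untreated cells. Id proteins are helix-loop-helix proteins without a DNA-binding basic region. They dimerise with E proteins, the widely expressed bHLH factors, and so keep these from pairing with tissue-specific bHLH factors and from binding DNA. Their transcription is a standard readout of BMP signalling through SMAD factors, and in the early mouse heart they act in cardiac progenitors and in the formation of the heart tube.

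The cells were cardiac progenitors differentiated from the mouse embryonic stem cell strain A2Lox.cre and harvested on day 6. Every library came from 1 line, GLI3R-FTA, which carries an inducible, tagged form of the repressor GLI3R, the processed form of GLI3 that keeps Hedgehog target genes down. The doxycycline group received 500 ng/ml doxycycline for 24 h from day 5, and the untreated group carried the same transgene without doxycycline. Each group had 2 streptavidin pull-downs of the tagged protein and 1 input. Each condition had 1 peak list, so no value has a replicate error, no test was made between conditions, and counting intervals cover counting error only. Peak lists hold no expression, so the labelled cell type was not checked against markers.

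The Id genes lie on 4 different chromosomes. On GRCm38.p6, the assembly of mm10, Id1 (gene ID 15901) spans 152736251 to 152737410 on chromosome 2 and Id2 (15902) spans 25093799 to 25096092 on chromosome 12, on the minus strand. Id3 (15903) spans 136143822 to 136145392 on chromosome 4 and Id4 (15904) spans 48261116 to 48266028 on chromosome 13, both on the plus strand. Exons, introns and UTRs were not analysed here.

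The promoters of Id2, Id3 and Id4 are shown because each of these genes had a doxycycline peak within 1 kb of its transcription start. The 250 bases upstream of the start were taken from RefSeq on GRCm38.p6, and the fourth sequence is the same window at a start of Bcl2l1, the survival gene beside Id1, because 1 of the Id1 peaks covered it whole. Sequences run 5′ to 3′ along the transcribed strand. Capitals mark CACCC or its reverse complement GGGTG, the core of the GLI motif, and GGCGCC, a GC box known from SMAD-bound BMP response elements.
Id2 (chr12:25096093-25096342, minus strand): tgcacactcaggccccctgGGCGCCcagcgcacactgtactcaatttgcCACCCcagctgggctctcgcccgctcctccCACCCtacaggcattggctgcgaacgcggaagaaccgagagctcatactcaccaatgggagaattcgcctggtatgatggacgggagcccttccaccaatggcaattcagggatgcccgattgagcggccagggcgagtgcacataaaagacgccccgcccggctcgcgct
Id3 (chr4:136143572-136143821, plus strand): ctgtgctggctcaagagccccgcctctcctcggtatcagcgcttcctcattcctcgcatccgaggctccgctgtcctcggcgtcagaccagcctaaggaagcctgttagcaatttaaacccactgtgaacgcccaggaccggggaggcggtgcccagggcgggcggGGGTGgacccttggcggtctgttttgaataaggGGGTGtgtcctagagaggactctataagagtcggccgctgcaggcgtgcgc
Id4 (chr13:48260866-48261115, plus strand): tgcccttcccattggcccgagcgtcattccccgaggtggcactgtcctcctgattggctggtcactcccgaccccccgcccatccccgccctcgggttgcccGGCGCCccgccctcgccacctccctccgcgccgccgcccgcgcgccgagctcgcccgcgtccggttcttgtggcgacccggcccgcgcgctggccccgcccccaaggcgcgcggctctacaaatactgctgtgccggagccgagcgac
Bcl2l1 (chr2:152830718-152830967, minus strand): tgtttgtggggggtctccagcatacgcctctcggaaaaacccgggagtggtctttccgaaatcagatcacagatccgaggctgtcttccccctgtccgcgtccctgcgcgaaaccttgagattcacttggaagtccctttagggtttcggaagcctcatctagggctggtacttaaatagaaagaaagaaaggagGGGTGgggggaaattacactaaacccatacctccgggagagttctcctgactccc

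The full 9-letter GLI motif GACCACCCA, searched on both strands (TGGGTGGTC on the other), was in none of these 4 windows and in 0.225% of 32851 windows of the same length. The core CACCC or GGGTG occurred 2 times upstream of Id2, 2 times upstream of Id3, once at Bcl2l1 and not at Id4, and 52.0% of all windows hold at least 1 copy. GGCGCC, which is its own reverse complement, occurred at 231 bases upstream of the Id2 start and 148 bases upstream of the Id4 start, and 9.59% of windows hold it. The E-box CANNTG, the binding sequence of the bHLH factors that Id proteins hold off DNA, occurred once at Id2 and once at Bcl2l1, and 66.2% of windows hold it. Every copy of a full GLI motif holds a core, so these counts overlap. The windows of Id2, Id3 and Id4 themselves lay outside the peaks: the nearest doxycycline peak began 303 bases away from the Id2 window, 548 bases from the Id3 window and 173 bases from the Id4 window. A match is a description of these letters and says nothing about a factor's binding.

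Every one of the 4 Id genes had a summit of the doxycycline list within 100 kb, and Id3 and Id4 also had one of the untreated list. The shares over 21887 protein-coding genes were 31.3% for the doxycycline list and 30.2% for the untreated list. Id1 and Id2 had doxycycline summits and no untreated summit, as 21.1% of all genes did. Id1 had 3 doxycycline summits, all inside its neighbour Bcl2l1, and 2.01% of genes reached that number. Id2 had 2, which 7.84% reached, and Id3 and Id4 had 1 each. In the untreated list Id1 and Id2 had 0, Id3 had 1 and Id4 had 2, and 6.13% of genes had 2 or more. The mean over all genes was 0.421 doxycycline summits and 0.380 untreated summits per gene, with a median of 0 in each list. The lists have thresholds of their own: the smallest pileup (fragments over a summit) was 5 among doxycycline peaks and 4 among untreated peaks. Weaker signal than this is not listed.

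**Figure D1:**
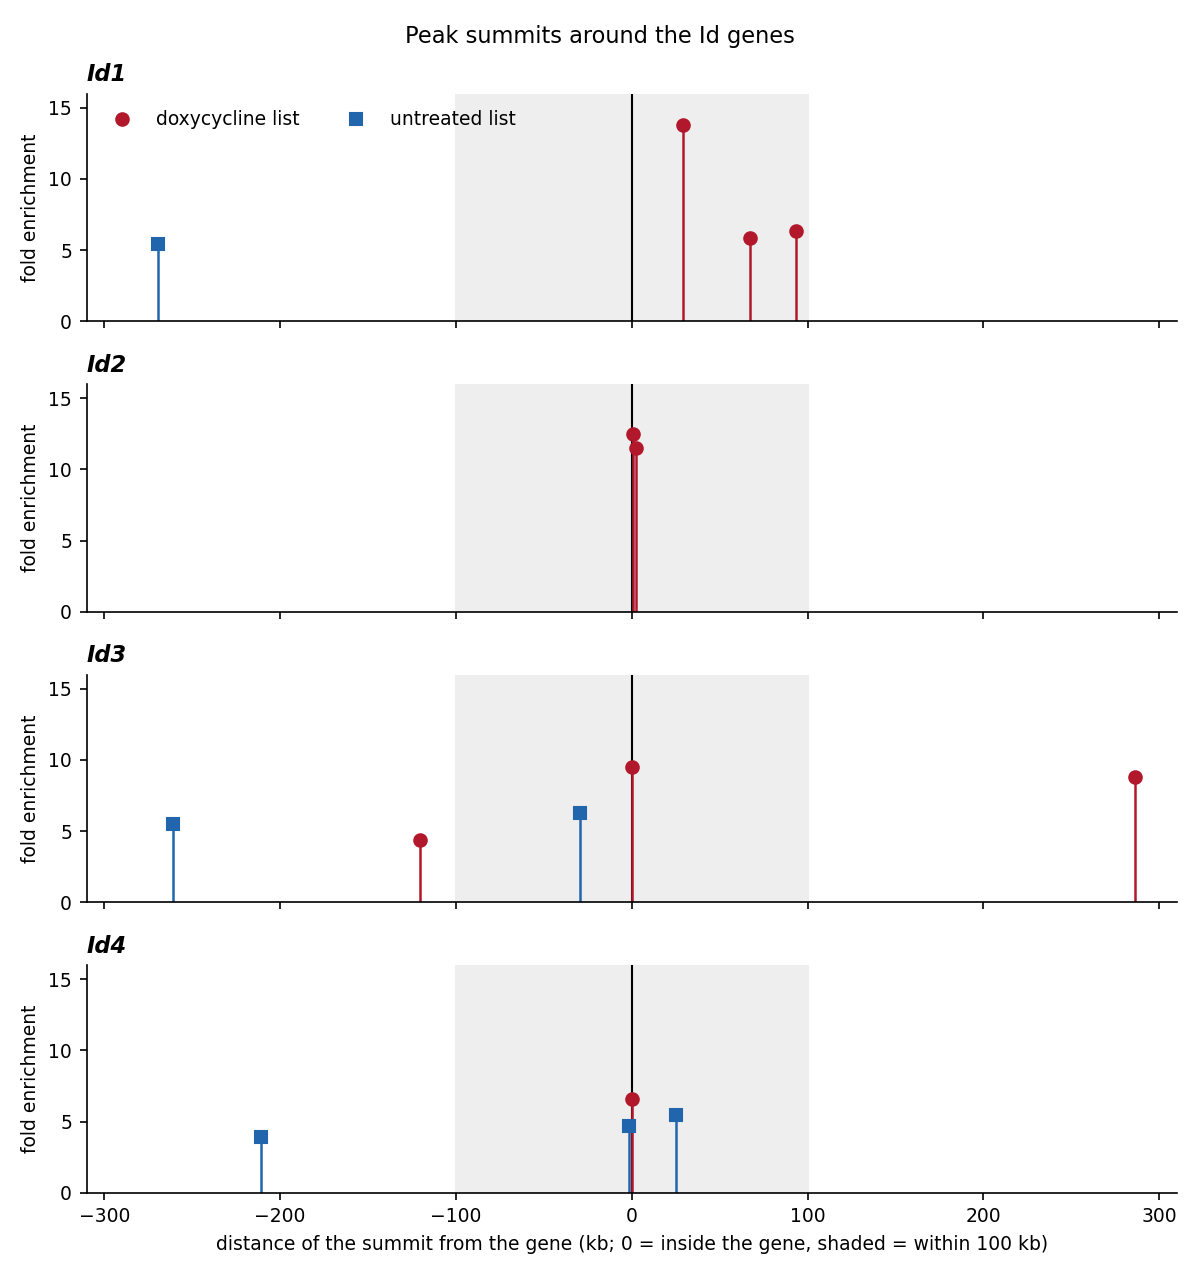
Summits within 300 kb of each Id gene, by distance from the gene interval in kb (horizontal, shaded within 100 kb) and the authors' fold enrichment (vertical), with circles for the doxycycline list and squares for the untreated list. Each gene has a doxycycline summit in the shaded range, and at Id2, Id3 and Id4 one lies within 1 kb of the gene or inside it.

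The lists were also compared close to the genes. Id2, Id3 and Id4 had a doxycycline summit within 10 kb, where 9.55% of all genes had one. Only Id4 had an untreated summit within 10 kb, where 8.60% of all genes had one. The same genes were found within 2.5 kb, a limit added after the positions were seen, where 7.24% of all genes had a doxycycline and 6.59% an untreated summit. Within 50 kb, all 4 Id genes had a doxycycline summit and Id3 and Id4 an untreated one, beside 20.0% and 18.8% of all genes. Within 1 kb of a listed transcription start, a limit chosen after the positions were seen, all 3 Id genes with a listed start had a doxycycline summit and none had an untreated summit. Id1 has no listed start and was left out, and its nearest doxycycline summit lay 29.2 kb from the gene. Over 17492 protein-coding genes with a listed start, the shares were 1.35% for the doxycycline list and 0.246% for the untreated list.

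Id2, which in mice acts in many lineages from immune cells to mammary epithelium, had its doxycycline peaks just upstream of the start. The nearer one (chr12:25096646-25097089) had its summit 905 bases upstream of the start, with a fold enrichment of 12.5, −log10 q at 17.4 and 17 fragments piled up (exact 95% Poisson interval 9.90 to 27.2). The other (chr12:25098296-25098594) had its summit 2305 bases upstream, with a fold enrichment of 11.5, −log10 q at 15.1 and 15 fragments piled up (8.40 to 24.7). The summits lay 1400 bases apart. Their pileup intervals overlap, and the difference in strength was not tested. Such close spacing was uncommon, as 4.07% of all doxycycline peaks and 1.48% of untreated peaks had another summit of the same list within 2 kb. The nearest untreated summit was 641 kb from the second of these peaks. Kidins220, the only other protein-coding gene within 100 kb, lies 30.6 kb away and on the far side of Id2 from the peaks.

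Id3, which is co-expressed with Id1 in many embryonic tissues and can compensate for its loss, had 1 doxycycline peak inside the gene. This peak (chr4:136144370-136144761) had its summit 831 bases downstream of the start, with a fold enrichment of 9.54, −log10 q at 11.0 and 13 fragments piled up (6.92 to 22.2). The untreated peak of Id3 (chr4:136114546-136114686) lay 29.2 kb upstream, with a fold enrichment of 6.29, −log10 q at 4.81 and 7 fragments piled up (2.81 to 14.4). Both summits had Id3 as the nearest protein-coding gene, and they were 30.04 kb apart. The neighbours E2f2, a cell cycle transcription factor gene, Asap3 and Rpl11, a ribosomal protein gene, lie 26.9, 61.0 and 90.4 kb from Id3 and contained none of these summits.

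Id4, the family member best known from neural progenitors, had 1 doxycycline peak inside the gene and untreated peaks on both sides. The doxycycline peak (chr13:48261289-48261438) had its summit 245 bases downstream of the start, with a fold enrichment of 6.58, −log10 q at 5.34 and 8 fragments piled up (3.45 to 15.8). The nearer untreated peak (chr13:48259283-48259440) had its summit 1765 bases upstream of the start, with a fold enrichment of 4.72, −log10 q at 2.52 and 5 fragments piled up (1.62 to 11.7). The other untreated peak (chr13:48290894-48291047) lay 25.0 kb beyond the end of the gene, with a fold enrichment of 5.50, −log10 q at 3.64 and 6 fragments piled up (2.20 to 13.1). The doxycycline summit and the nearer untreated summit were 2010 bases apart and their peaks did not overlap. Both also lay inside the annotated lncRNA gene A330033J07Rik, which reaches into Id4, and no other protein-coding gene lies within 100 kb of Id4.

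**Figure D2:**
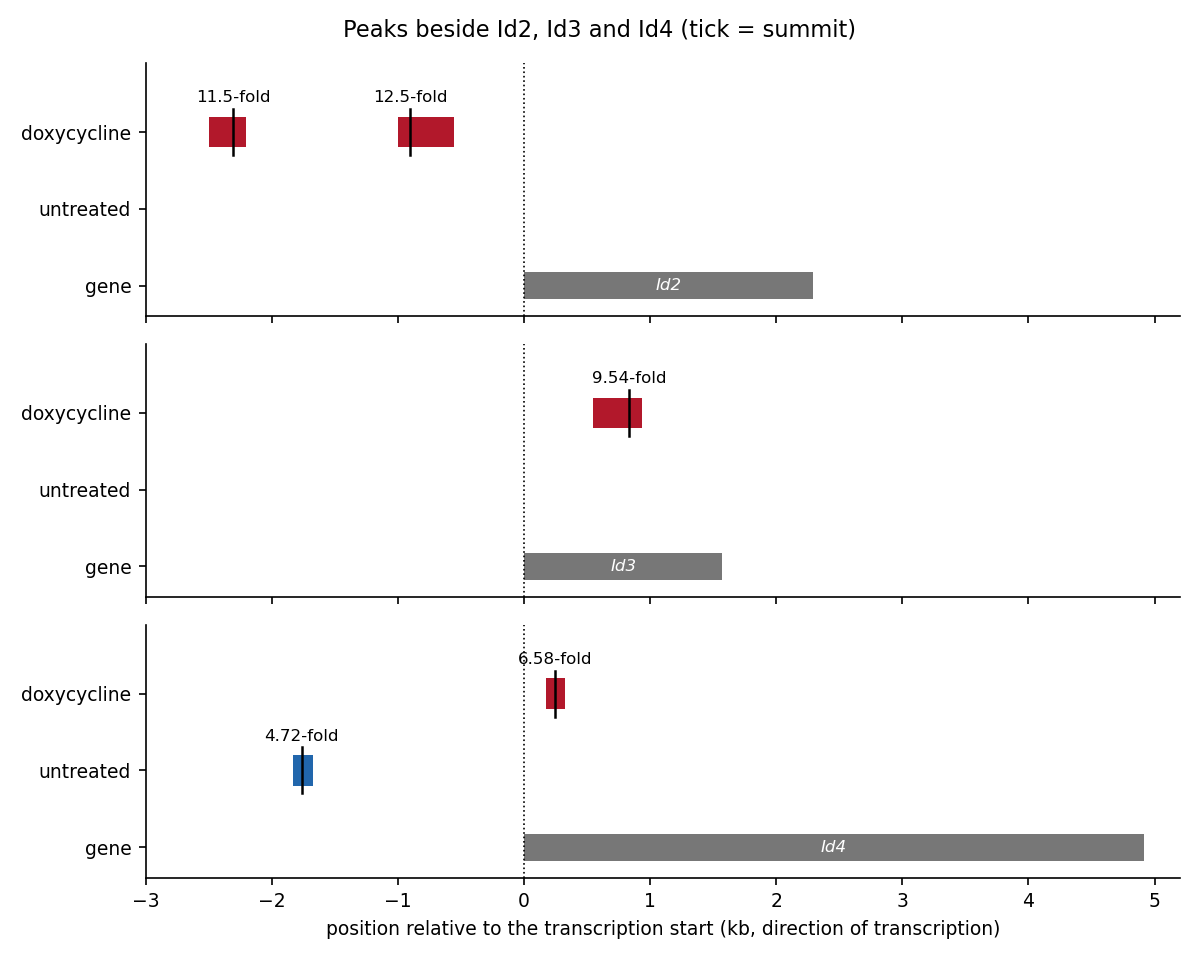
Peaks within 5 kb of the transcription starts of Id2, Id3 and Id4, by position in kb along the direction of transcription (horizontal), with the doxycycline list above the untreated list and the gene in grey. Bars span the peak, ticks mark the summit, and the doxycycline summits sit 905 and 2305 bases upstream at Id2, 831 bases downstream at Id3 and 245 bases downstream at Id4, with 1 untreated peak 1765 bases upstream at Id4.

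Id1, a common readout of BMP signalling in endothelial cells, differed from the others in where its peaks lay. Its strongest peak (chr2:152766469-152766727) had its summit 29.2 kb from the gene, with a fold enrichment of 13.8, −log10 q at 20.1 and 18 fragments piled up (10.7 to 28.4). The next (chr2:152804643-152804799) lay 67.3 kb away, with a fold enrichment of 5.85, −log10 q at 4.17 and 7 fragments piled up (2.81 to 14.4). The third (chr2:152830582-152831362) lay 93.5 kb away, with a fold enrichment of 6.37, −log10 q at 5.11 and 8 fragments piled up (3.45 to 15.8). All 3 summits were inside Bcl2l1, a minus-strand gene encoding the apoptosis inhibitor BCL-XL that has its end, not its start, 21.3 kb from Id1. Bcl2l1 was therefore the nearest gene of each, and Id1 had no summit of its own when only the nearest gene was counted. The third peak, at 781 bases the widest of those near Id genes, covered the whole Bcl2l1 window printed above, and its summit was 205 bases from that start. Distance alone does not assign a peak to Id1 or to Bcl2l1. The other neighbours, Cox4i2, H13 and Mcts2, lie 16.5, 27.6 and 48.3 kb from Id1 and contained none of the summits. The nearest untreated summit to Id1 was 270 kb away.

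Within the doxycycline list the Id peaks were mostly strong ones. Of the 7, 6 had a −log10 q of at least 5, as did 33.3% of all doxycycline peaks. The strongest peaks of Id1, Id2, Id3 and Id4 ranked above 97.5%, 96.8%, 92.7% and 68.05% of their list by −log10 q, and the second Id2 peak above 95.6%. The remaining Id1 peaks ranked above 51.9% and 66.8%. All 3 Id1 peaks had Bcl2l1 as their nearest gene. None of the 3 untreated Id peaks reached a −log10 q of 5, a value that 9.41% of untreated peaks reached. The untreated peak of Id3 ranked above 82.8% of its own list, and those of Id4 above 37.6% and 67.4%. With this minimum, all 4 Id genes kept a doxycycline summit within 100 kb and none had an untreated one, beside 13.7% of all genes for the doxycycline list and 3.33% for the untreated list. The cut fell between close values. The doxycycline peak of Id4 passed at 5.34 with 8 fragments, and the untreated peak of Id3 failed at 4.81 with 7 fragments.

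**Figure D3:**
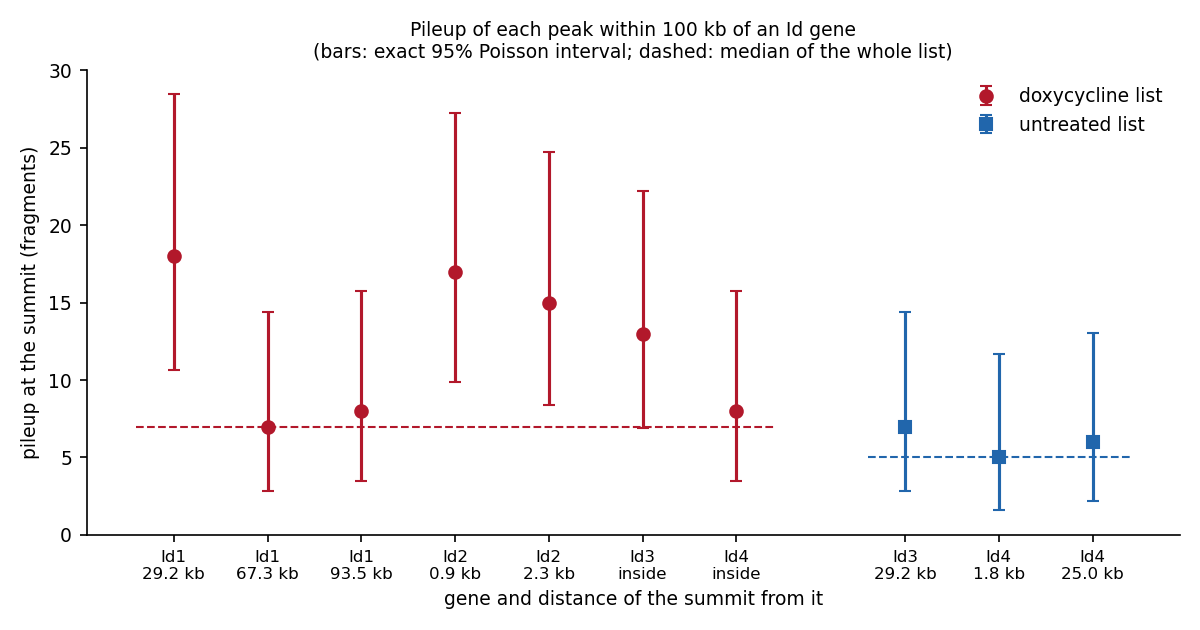
Pileup in fragments (vertical) of each peak within 100 kb of an Id gene, by gene and distance (horizontal), with circles for the doxycycline list, squares for the untreated list, bars for exact 95% Poisson intervals and dashed lines for the median of each whole list. Doxycycline peaks run from 7 to 18 fragments against a list median of 7, and untreated peaks from 5 to 7 against a list median of 5.

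Ordered by their strongest doxycycline peak, the genes ran Id1, Id2, Id3 and Id4, with pileups of 18, 17, 13 and 8 fragments. The Id1 peak in this order had Bcl2l1 as its nearest gene. The intervals of neighbours in this order overlap, and the interval of Id4 (3.45 to 15.8) also overlaps that of Id1 (10.7 to 28.4). Differences between these pileups were not tested. The local expectation, the fragments expected from background at a summit, lay between 0.368 and 0.468 at the 7 doxycycline peaks, where the most frequent value in the list was 0.368. It was 0.272 at all 3 untreated peaks, the most frequent value of that list. None of the 7 doxycycline peaks overlapped an untreated peak, and 2.01% of all doxycycline peaks did. The widths of the doxycycline Id peaks ran from 150 to 781 bases, with a list median of 160.

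Beyond 100 kb the Id genes had few further summits. The nearest one outside the limit was a doxycycline summit 120 kb from Id3 with a fold enrichment of 4.39 and a pileup of 5 fragments, close to Eloa. The farthest one inside was the third Id1 peak at 93.5 kb. Up to 300 kb, Id3 had 1 more doxycycline summit, at 286 kb, and Id1, Id3 and Id4 each had 1 more untreated summit, at 270, 261 and 211 kb. Id2 had none in either list.

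The genes around the Id proteins, upstream in BMP signalling and downstream among their bHLH partners, were taken as 4 lists of 79 genes in all, each gene counted once. Doxycycline summits lay within 100 kb of 34 of these genes (43.0%), beside 31.3% of all genes. Untreated summits lay within 100 kb of 22 (27.8%), near the 30.2% of all genes. Both kinds were found at 11 (13.9%), beside 10.3% of all genes, and at Id3 and Id4 among the Id genes. Since the lists were made with earlier results of these data known, the counts describe these lists only.

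BMP signalling components had doxycycline summits at 16 of 30 genes (53.3%) and untreated summits at 11 (36.7%), beside the shares of all genes given above. By −log10 q, the peaks of Smad6, Bmp2 and Smad7 were among the leading doxycycline peaks. Smad6, which encodes an inhibitory SMAD, had 6 doxycycline summits, the strongest at 12.8-fold and 20.1 kb. Bmp2, a ligand gene, had 1 at 12.4-fold and 72.8 kb, and also 1 untreated summit at 6.29-fold and 10.4 kb. Smad7, the other inhibitory SMAD gene, had 1 inside the gene at 11.7-fold. In the untreated list the strongest were at Smurf1, a ubiquitin ligase gene of the pathway (8.51-fold, 43.6 kb), and Chrd, which encodes the BMP antagonist chordin (7.07-fold, 72.9 kb). Other genes known to respond to BMP had doxycycline summits at 7 of 12 (58.3%), beside 31.3% of all genes. They had untreated summits at 2 (16.7%), beside 30.2% of all genes. Hand1, a bHLH factor of heart and placenta, had 4 doxycycline summits, the strongest at 16.1-fold and 52.02 kb, and 2 untreated summits. Gata2 followed at 10.4-fold and 69.95 kb, the homeobox gene Dlx5 at 8.04-fold and 2.97 kb, and Dlx3 at 6.58-fold and 44.7 kb. The strongest untreated peak was 97.4 kb from Tbx20, a T-box gene of the heart, at 7.07-fold.

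The dimerisation partners of Id proteins followed. Of the 3 E protein genes, Tcf3 and Tcf12 had a doxycycline summit, at 4.87-fold and 5.12-fold with a pileup of 6 fragments each. Tcf4 and Tcf12 had an untreated one inside the gene, at 3.93-fold and 4.72-fold. Over all genes the shares were 31.3% for the doxycycline list and 30.2% for the untreated list. Of 36 tissue bHLH genes, 10 (27.8%) lay within 100 kb of a doxycycline summit, a share near the 31.3% of all genes. For the untreated list this held for 8 (22.2%), beside 30.2% of all genes, and the difference was not tested. Hand1 belongs to this list too, and after it the strongest doxycycline peaks were those of Hand2, a heart field factor (9.93-fold, 9.51 kb), Lyl1, a blood and endothelial factor (7.18-fold, 45.1 kb), and Twist2 (5.85-fold, 48.8 kb). In the untreated list Neurog3, a factor of endocrine fate, was among those with the strongest peaks, at 5.50-fold.

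**Figure D4:**
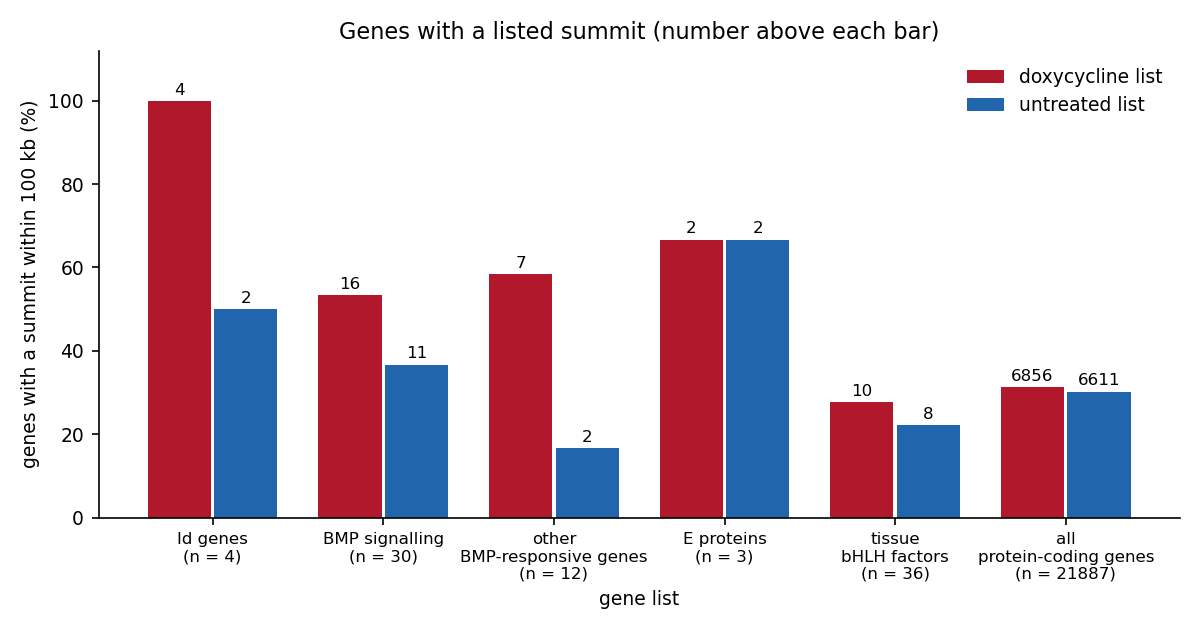
Percentage of genes with a summit within 100 kb (vertical) in the Id family, 4 related gene lists and all protein-coding genes (horizontal), with the doxycycline list left of the untreated list and the number of genes above each bar. The doxycycline bar is at 100% for the 4 Id genes, 53.3% for BMP signalling, 58.3% for other BMP-responsive genes and 27.8% for tissue bHLH factors, against 31.3% for all genes.

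The genes of these lists most like each Id gene were those with the same number of summits in both peak lists, ordered by how close their strongest doxycycline fold enrichment was. Likeness thus rests on 2 peak lists. Lyl1 was the only list gene with the 3 doxycycline and 0 untreated summits of Id1, a pattern of 0.804% of all genes. Gata2 and Hand2 were closest to Id2, whose pattern 3.74% of genes shared. Smad9 (8.34-fold, 0.182 kb away) and Bmp2 were closest to Id3, with a pattern of 5.60% of genes. Neurog3 (5.12-fold) was closest to Id4, with a pattern of 1.46%.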

How the data were processed

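The GLI3R ChIP-seq had 6 libraries, 4 pull-downs and 2 inputs, grouped by their titles. The labels' protocol text names GLI1 where titles and cell line name GLI3R, and group names here go by the titles. The build is mm10, and the tools named are MACS2 2.1.1, Bowtie2 2.3.2 and SAMtools 1.5, per the submitters' processing notes. Their settings, any pooling of pull-downs and any use of the inputs were not given in the sources used, and library totals were not analysed here.

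The authors deposited 1 peak list per condition, of 3725 doxycycline and 4428 untreated rows. The fold enrichment (a ratio), −log10 p and −log10 q of a peak are the authors' deposited values at its summit. The deposited score, which is 10 times −log10 q cut to a whole number, played no part. Fold and −log10 values rank and filter peaks within a list only. Rows with the same interval were merged with their best summit. Pileups were solved for as whole numbers from fold and −log10 p, taking MACS2's pseudocount of 1 in both terms of the ratio and the Poisson tail above the pileup. The solution met −log10 p to within 0.01 at 99.8% of peaks in each list.

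Genes, transcription starts and promoter sequences came from RefSeq tables on GRCm38.p6. All 79 list genes matched by symbol, and listed starts were used for Id2, Id3 and Id4. Distances run from the summit to the gene interval. Named genes were the Id genes, their neighbours within 100 kb, the nearest genes of their peaks, and per list up to 4 genes with the strongest doxycycline and 2 with the strongest untreated peak by −log10 q. Some genes this rule names are not reported here. The members and lists were chosen with earlier results of these data known. On simulated data, 100% of 500 pileups and 100% of 200 planted summits were recovered. The simulation used the same formula and distance limit, so it checks the code only. The work used scipy 1.17.1, pandas 2.3.3, numpy 2.4.6 and matplotlib 3.10.9 under Python 3.11.15.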

Additional observations from a re-analysis of the deposited data

How the results depend on the processing

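No paired analysis was possible because the deposited lists carry no values per pull-down, and so no replicate could be left out. With a 10 kb limit, Id genes kept 4 of 7 doxycycline summits, and 1 of the 3 untreated summits, at 1 gene. With the nearest gene only, 4 doxycycline summits were left, none at Id1. With a −log10 q of at least 5, untreated summits fell to 0, at 0 genes. At limits chosen after seeing the data, the doxycycline list reached 3 Id genes within 2.5 kb and the untreated list 1 (7.24% and 6.59% of all genes), against 3 and 0 within 1 kb of a listed start (1.35% and 0.246%). Of the 79 list genes, 21 (26.6%) had a doxycycline and 11 (13.9%) an untreated summit within 50 kb, beside 20.0% and 18.8% of all genes. The stricter −log10 q left 16 (20.3%) and 3 (3.80%), beside 13.7% and 3.33%. Of the 30 BMP signalling genes, 12 had a doxycycline and 5 an untreated summit within 50 kb. The stricter −log10 q left 10 and 2 of them. Of the 12 other BMP-responsive genes, 4 had a doxycycline and 1 an untreated summit, within 50 kb and also at the stricter −log10 q. These filters and limits leave fewer summits by construction. The other alternatives, a 50 or 200 kb limit, a pileup of at least 5 (which every doxycycline peak has), all rows and distance from the peak edge, moved no Id count by over 1.5 times. The strongest peak of each Id gene was the same under all 24 combinations run. These covered the 50 and 200 kb limits, ranking by fold enrichment and all rows. The 10 kb limit, the nearest gene only and the −log10 q minimum were not among them. Id3 in each list and Id4 in the doxycycline list had only 1 peak within 100 kb. There, only the 200 kb limit could have added another peak. No untreated summit lay within 500 bp of a doxycycline Id summit. Reciprocal overlap of 50% and a −log10 q of at least 5 could only lower an overlap count that was already 0. Pileups of 5 to 18 fragments and 1 list per condition limit how far a listed or a missing peak can be read.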
